A study of Artemisia annua with 12 samples.

Results

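In leaves of Artemisia annua, the plant that makes the antimalarial artemisinin, 45 of the 63226 gene identifiers in the deposited table were high after 2 h under UV-B lamps, lower again by 4 h, and still above their starting level at 4 and 6 h. They were chosen by measured values. On the scale log2(value + 1), with each harvest taken as the mean of its 3 libraries, a gene had to start at 1 or more and gain at least 2 by 2 h. It then had to lose at least 1 between 2 and 4 h, and to stay at least 0.75 above 0 h at both 4 and 6 h. The differences that the rule used are therefore given as a description, without a test. The differences of 6 h from 4 h and from 2 h have no threshold of their own in the rule. That from 4 h was tested; that from 2 h, where the rule asked for a high value, is described only.

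The plants were wild-type seedlings of the high-artemisinin cultivar Huhao 1, 6 weeks old, grown in a greenhouse with 16 h of light and 8 h of dark. Added narrowband UV-B lamps gave 1.5 μmol per square metre and second, and the leaf that had most recently expanded was taken after 0 h (UV0), 2 h (UV2), 4 h (UV4) or 6 h (UV6). Each harvest has 3 libraries, and each library is a pool of leaves from 3 seedlings, which the labels call biological repeats. All 4 groups share cultivar, genotype and growth condition, and no group was kept without the lamps for 2, 4 or 6 h, so that the effect of the lamps and of clock time cannot be told apart.

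Plants sense UV-B through the receptor UVR8, which acts with COP1 on the transcription factor HY5 and so on genes for UV-absorbing flavonoids and for DNA repair. A leaf answers a new light stress with a fast burst of transcripts, many of which decline again while the stress lasts, and others of which keep a raised level. The table pairs no identifier with a gene name or a product, so none of the 45 genes can be placed in such a pathway here. The labelled tissue could not be checked against leaf markers for the same reason. Identifiers are printed only for the genes with the largest tested rises on the log2(value + 1) scale and the tested fall between 4 and 6 h.

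Values are the authors' normalised expression values, whose unit the header does not name; library totals lay between 851404 and 868133, and read depth is unknown. Before exposure the 45 genes were low to moderate in value. Their means at 0 h ran from 1.02 to 28.6 with a median of 3.71, and 36 of the 45 were below 10. At 2 h the means ran from 8.84 to 782 with a median of 32.1, and 11 genes reached 100 or more. At 4 h they ran from 2.86 to 250.7 with a median of 11.6, and at 6 h from 3.22 to 487 with a median of 13.3. In bulk leaf RNA, fewer cells with a transcript and less transcript per cell cannot be told apart.

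The difference between 2 and 0 h spanned 2.00 to 6.97 on the log2(value + 1) scale, with a median of 2.67. It lay below 3 in 28 genes and at 4 or more in 5. As ratios of mean values the genes stood 4.27 to 148-fold above 0 h, with a median of 9.11-fold. The loss between 2 and 4 h had a median of -1.33 on the log2 scale and was close to the limit of -1 in many genes, with quartiles of -1.50 and -1.19. Only 4 genes lost 2 or more, and the largest loss was -3.15. At 4 h the genes stood 1.77 to 47.6-fold above 0 h in mean value, with a median of 2.92-fold, and at 6 h 1.83 to 92.4-fold, with a median of 3.22-fold. Over all 25841 genes tested, the median log2 difference from 0 h was 0.13 after 2 h, 0.21 after 4 h and 0.20 after 6 h, and the members' differences are to be read relative to these medians. After median-ratio scaling, which brings them near 0, the medians of the 45 genes were 2.57, 1.10 and 1.28 after 2, 4 and 6 h.

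**Figure D1:**
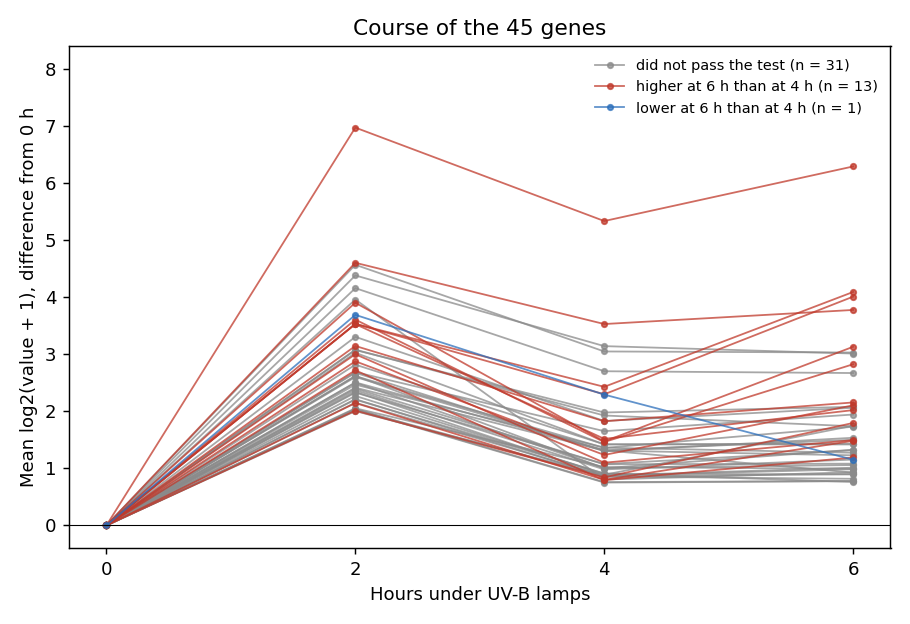
Mean log2(value + 1) of each of the 45 genes at 0, 2, 4 and 6 h under UV-B lamps, as the difference from 0 h; each line is 1 gene and each point the mean of 3 libraries. Colours give the limma result for 6 h against 4 h, with 13 genes higher, 1 lower and 31 that did not pass the test; the highest line, at 6.97 at 2 h, is far above the next.

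The libraries of a harvest lay close together beside these differences. The median coefficient of variation of the 45 genes over 3 libraries was 13.3% before exposure, where values are lowest, 6.08% after 2 h, 7.57% after 4 h and 6.74% after 6 h. All 45 genes had every 2 h library above every 0 h library and above every 4 h library, and all 45 had every 6 h library above every 0 h library. For 4 h against 0 h this held for 44. Among all tested genes these separations were found for 39.3% (2 h above 0 h), 22.4% (2 h above 4 h), 44.6% (6 h above 0 h) and 45.9% (4 h above 0 h); the rule used these contrasts, so nothing is read from the counts. The exception at 4 h was a gene with values of 2.93, 0 and 3.52 at 0 h and of 1.64, 8.97 and 11.89 at 4 h. Its 4 h libraries varied by 70.4% and overlapped those at 0 h. Whether the listed 0 is a failed estimate was not tested.

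Summed over the 45 genes, the values made up 0.0346% ± 0.000275 (SD, n = 3) of the library total at 0 h. It reached 0.406% ± 0.00666 after 2 h, and was then 0.143% ± 0.00231 in the 4 h harvest and 0.236% ± 0.00171 in the 6 h harvest. The harvests did not overlap in this sum, which was therefore higher at 6 h than at 4 h. A few genes of high value set it. The gene with the highest mean held 22.5% of the summed values at 2 h and 24.1% at 6 h. The median value of the 45 genes, which high genes do not set, ran from 11.81 to 12.10 in the 4 h libraries and from 13.21 to 13.98 in the 6 h libraries.

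The gene with the largest 2 h rise also had the highest value of the group at 2 h. Its values were 4.99, 4.73 and 6.09 at 0 h, 812.82, 750.90 and 781.27 at 2 h, 259.45, 240.08 and 252.42 at 4 h, and 472.31, 494.21 and 495.07 at 6 h. It thus went up by a ratio of 148, came down to 250.7 ± 9.81 (SD, n = 3), and stood at 487 ± 12.9 at 6 h, with no overlap between harvests. The next largest rise, 4.60 on the log2 scale, belonged to a gene at 3.25 ± 0.247 (SD, n = 3) at 0 h and 102 ± 5.55 at 2 h, which kept more of its rise at 4 h than any other member, 76.7% on the log2 scale. The smallest share was kept by a gene that went from 1.25 ± 0.506 (SD, n = 3) before exposure to 33.6 ± 5.13 at the peak, and was at 2.86 ± 0.0529 after 4 h and 3.22 ± 0.217 after 6 h. It kept 20.3% of its log2 rise at 4 h and 23.6% at 6 h.

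For each gene the log2 difference from 0 h was divided by that at 2 h, which gives the share of the 2 h rise still present. The median share was 46.2% at 4 h and 56.4% in the 6 h libraries. At 4 h, 26 of the 45 genes had kept less than 50% of the rise, and at 6 h 18 had. The shares depend on the scale. Taken from mean values without logarithm, the median share was 27.3% at 4 h and 31.5% at 6 h, and after median-ratio scaling on the log2 scale it was 38.6% and 49.9%. The median was higher at 6 h than at 4 h on each of these scales. Both shares of a gene are divided by the same 2 h rise, so their order repeats that of its 6 h and 4 h levels. Nothing further is read from it.

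**Figure D2:**
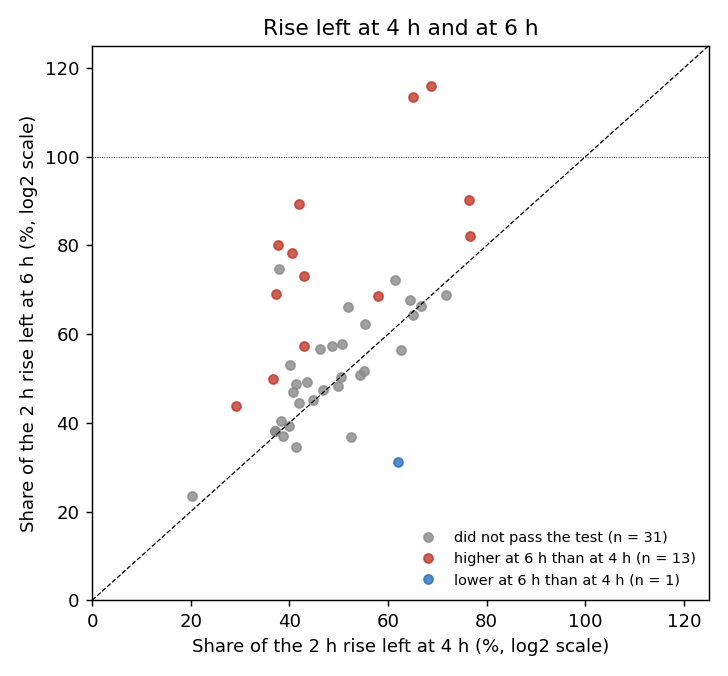
Share of the 2 h rise left at 4 h (x axis, %) and at 6 h (y axis, %) on the log2(value + 1) scale; each point is 1 of the 45 genes, the dashed line marks equal shares and the dotted line 100%. The points at 114% and 116% are CTI12_AA208120 and CTI12_AA503680, which stood higher at 6 h than at 2 h.

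The genes were also grouped by their level before exposure. The 18 genes that started at 1 to 2 on the log2(value + 1) scale had a median rise of 2.65, the 20 genes at 2 to 4 one of 2.51, and the 7 genes at 4 to 6 one of 3.00. As ratios of mean values the median rises were 10.1-fold, 6.77-fold and 8.47-fold, so the order of the groups depends on the scale. No member started at 6 or more. The median share left at 6 h was 50.4%, 60.0% and 56.6% in these 3 groups, and the ranges overlapped. The median coefficient of variation at 0 h was 20.8%, 11.3% and 6.80%, so the level from which the lowest genes rose is the least precisely measured, and the pseudocount of 1 understates their rise most.

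Comparison of 6 h with 4 h asked whether the raised level after the fall was flat. At 6 h, 13 of the 45 genes were higher than at 4 h and 1 was lower (limma, Benjamini-Hochberg adjusted over all 25841 genes tested, threshold 0.05), and 31 did not pass the test. All 45 genes were among those tested, which follows from the rule. Of all tested genes, 4.44% were higher and 5.47% were lower at 6 h, against 28.9% and 2.22% of the 45. The median difference of the 45 was 0.14 on the log2 scale, and that of all tested genes was -0.02. Genes with a mean difference above 0 numbered 32 of 45 (71.1%), against 45.6% of all tested genes. The rule is not neutral here: it takes genes whose 4 h value is low relative to 2 h, and it drops genes whose 6 h value is low. In 20 of the 45 genes every 6 h library was above every 4 h library, which held for 12.7% of all tested genes, and in 2 every 6 h library was below, which held for 16.5%.

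The same difference was measured in 4 h libraries that had no part in the choice. When the rule was applied without a 4 h library and the 6 h mean was set against that left-out library alone, the median difference was 0.15, 0.20 and 0.19 for replicates 1, 2 and 3, with 33 of 44, 33 of 46 and 32 of 48 genes above 0. Set against the 4 h libraries used for the choice, it was 0.13, 0.21 and 0.20. With all libraries, 45.6% of all tested genes had a mean difference above 0. The 6 h libraries, and those at 0 and 2 h, still took part in the choice here. The check therefore does not free the difference from the rule.

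**Figure D3:**
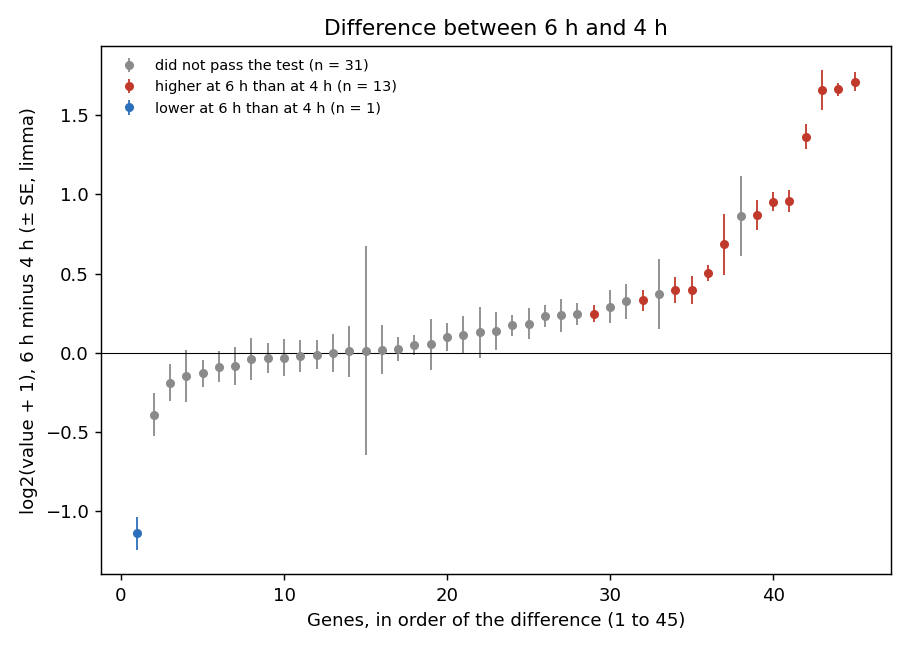
Difference in log2(value + 1) between 6 and 4 h for the 45 genes, in order of size, with the standard error from limma. Of the 13 genes that were higher, 4 differed by 1.36 to 1.71 and the other 9 by 0.25 to 0.96; the gene with the widest error, 0.66, is the one listed at 0 in a 0 h library.

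The 13 genes that were higher at 6 h differed by 0.25 to 1.71 on the log2 scale, with limma adjusted p-values from 1.29e-08 to 0.0471, and in all 13 the 6 h libraries lay above the 4 h libraries. Of the library total they made up 0.0875% ± 0.00218 at 4 h and 0.178% ± 0.00126 at 6 h (SD, n = 3). The 31 genes without a call summed to 0.0542% ± 0.000218 at 4 h and 0.0574% ± 0.00117 at 6 h. Both groups were formed by the result of the test, so these sums are a description only. The genes that were higher had larger values, with a median 4 h mean of 36.6 against 10.6 for the 31, and smaller standard errors, with a median of 0.068 against 0.115. Standard errors thus differed between the called and the uncalled genes. Within 0.25 of 0 on the log2 scale lay 27 of the 45 genes, and 10 were up by 0.5 or more. Shares of all tested genes are not given for these counts, and nothing is read from them.

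On the log2(value + 1) scale the largest rises between 4 and 6 h were those of CTI12_AA208120 and CTI12_AA503680. As ratios of mean values they were 3.29 and 3.19, and another gene of lower value had 3.55. CTI12_AA208120 had values of 19.90, 18.75 and 17.37 at 0 h, 231.64, 218.15 and 228.87 at 2 h, 89.48, 94.02 and 103.66 at 4 h, and 318.20, 303.64 and 323.84 at 6 h. The harvests did not overlap, and the highest values were those at 6 h, not those at 2 h. It rose from 95.7 ± 7.24 to 315 ± 10.4 (SD, n = 3) between 4 and 6 h, by 1.71 ± 0.0598 SE on the log2 scale (limma adjusted p = 5.55e-08).

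CTI12_AA503680 took the same course at a lower level. Its values were 15.11, 13.98 and 13.54 at 0 h, 175.82, 172.85 and 174.97 at 2 h, 78.37, 81.55 and 82.42 at 4 h, and 255.55, 266.84 and 251.07 at 6 h. Again no harvests overlapped and the 6 h libraries were the highest. It rose from 80.8 ± 2.13 to 258 ± 8.13 (SD, n = 3) in the same interval, by 1.66 ± 0.0423 SE on the log2 scale (limma adjusted p = 1.29e-08). These were the only members of the 45 with a mean at 6 h above that at 2 h, by ratios of 1.39 and 1.48.

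The ratio of CTI12_AA208120 to CTI12_AA503680 lay between 1.14 and 1.34 in the 12 libraries. Its mean over 3 libraries was 1.31 ± 0.0293 (SD) before exposure and 1.30 ± 0.0296 at the 2 h peak, then 1.18 ± 0.0640 after 4 h and 1.22 ± 0.0781 after 6 h. Among all 990 pairs of the 45 genes, the difference of log2 values varied least over the libraries in this pair, with an SD of 0.080 against a median of 0.52. The next pair, of other members, was close to it, with an SD of 0.090. The pair was compared after its values were seen. Whether both identifiers stand for near-identical copies that share reads was not tested, so their separate values are uncertain.

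**Figure D4:**
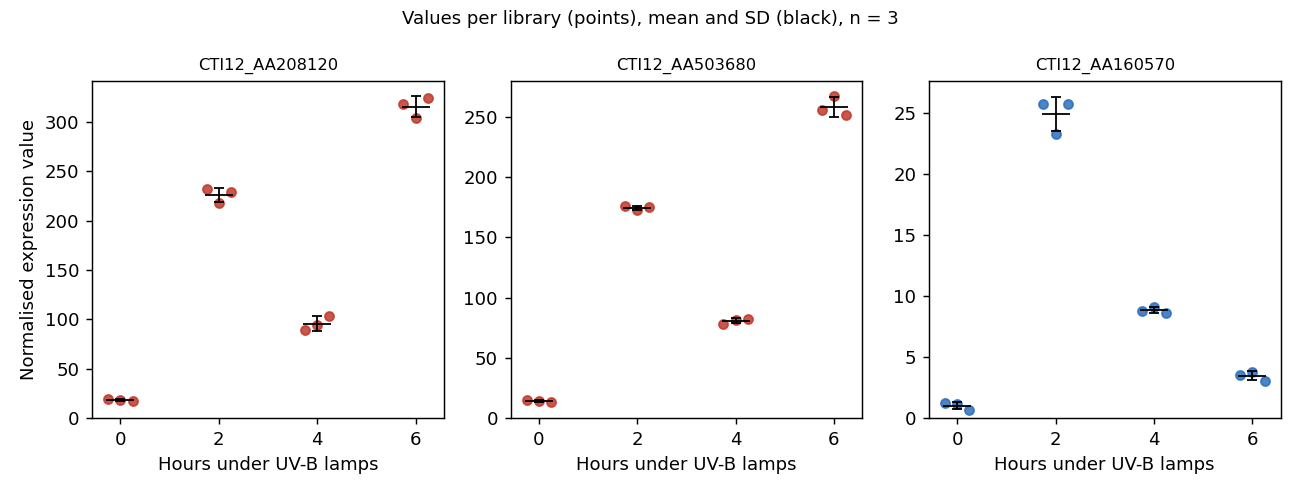
Normalised expression values of CTI12_AA208120, CTI12_AA503680 and CTI12_AA160570 in each of the 3 libraries at 0, 2, 4 and 6 h (coloured points), with the mean and SD in black; each panel has its own axis, which starts at 0. The first 2 genes peak at 2 h, dip at 4 h and are highest at 6 h, while CTI12_AA160570 steps down from 24.9 at 2 h to 3.46 at 6 h.

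Other genes came back toward the 2 h level without passing it. The gene with the ratio of 3.55, at 1.20 ± 0.359 (SD, n = 3) at 0 h and 31.6 ± 0.825 at 2 h, had values of 5.32, 4.13 and 5.83 at 4 h and of 17.79, 18.74 and 17.79 at 6 h. The 6 h libraries were all above those at 4 h and all below those at 2 h, and the rise between 4 and 6 h was 1.66 ± 0.126 SE on the log2 scale (limma adjusted p = 1.22e-05). Another started at 1.27 ± 0.106, peaked at 26.7 ± 0.870, dipped to 5.26 ± 0.438 and ended at 15.1 ± 1.23, a rise of 1.36 ± 0.0781 SE after 4 h (limma adjusted p = 1.61e-06). The gene with the largest 2 h rise gained 0.96 ± 0.0684 SE after 4 h (limma adjusted p = 7.31e-06). With the 2 genes above the 2 h level counted in, 14 of the 45 genes were less than 1 below that level at 6 h on the log2 scale. The rule required a distance of at least 1 at 4 h. Many members lay close to that limit, so a small difference could bring a gene into this count. Among the 14, the genes that did not pass the test differed between 6 and 4 h by 0.10 ± 0.0879, 0.29 ± 0.105, 0.37 ± 0.220 and 0.86 ± 0.253 SE. Their limma adjusted p-values were 0.560, 0.114, 0.352 and 0.0604. A share of all tested genes is not given for the count of 14, and nothing is read from it.

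CTI12_AA160570 was the only one of the 45 genes that passed the test as lower at 6 h than at 4 h. Its values were 1.23, 1.13 and 0.70 at 0 h, 25.69, 23.25 and 25.74 at 2 h, 8.81, 9.07 and 8.59 at 4 h, and 3.57, 3.76 and 3.06 at 6 h. It was lower at each harvest after 2 h, without overlap, and still above 0 h at 6 h. It fell by 1.14 ± 0.106 SE on the log2 scale between 4 and 6 h (limma adjusted p = 5.18e-05), from 8.82 ± 0.240 (SD, n = 3) to 3.46 ± 0.362, and kept 31.2% of its 2 h rise. It is also the member that started closest to the minimum of the rule, at 1.004 on the log2(value + 1) scale.

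Most of the 45 genes held a level after 4 h that the test did not separate from that at 6 h. The 31 genes without a call differed by -0.39 to 0.86 on the log2 scale, with a median of 0.02. An example of high value had 47.97, 48.85 and 48.87 at 4 h and 44.60, 48.27 and 49.76 at 6 h, after 135 ± 6.37 (SD, n = 3) at 2 h and 6.69 ± 1.27 at 0 h. Its libraries at 4 and 6 h overlapped, and the difference was -0.03 ± 0.0946 SE (limma adjusted p = 0.897). The gene with the largest difference among the 31 had 14.23, 10.41 and 7.88 at 4 h and 26.31, 18.00 and 16.80 at 6 h. Its libraries did not overlap, but their spread was wide, and the difference of 0.86 ± 0.253 SE did not pass (limma adjusted p = 0.0604). At an unadjusted p under 0.05, 20 of the 45 genes would be higher and 2 lower, where 10.5% and 13.1% of all tested genes would be.

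The 45 genes are a part of 334 that started at 1 or more and were up by at least 2 at 2 h. Of these 334, 242 lost less than 1 between 2 and 4 h, or gained. A further 47 lost at least 1 but were less than 0.75 above 0 h at 4 or 6 h. The median rise at 2 h, which the rule set at 2 or more in all of them, was 2.67 for the 45, 2.57 for the 242 and 2.29 for the 47. Between 6 and 4 h, 51 of the 242 genes (21.1%) were higher and 58 (24.0%) lower (limma, adjusted as above), with a median difference of -0.14. Of the 47, 5 (10.6%) were higher and 2 (4.26%) lower, with a median of 0.01. The shares higher and lower were 28.9% and 2.22% for the 45, and 4.44% and 5.47% for all tested genes. A raised share of higher calls was thus not particular to the 45. The differences between these groups of genes were not tested.

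The thresholds divide a continuous range. At the limit of the loss between 2 and 4 h, the member just inside lost 1.03 (-1.03) and the gene just outside, at -0.99, had means of 3.36, 24.8, 11.9 and 13.3 at 0, 2, 4 and 6 h; 241 genes failed on this condition alone. At the starting level the member just inside stood at 1.004 and the gene just outside at 0.91, and 55 genes failed on it alone. The 2 h rise left out 4 genes alone, of which the nearest stood at 1.994 against 2.003 just inside. The level kept at 4 h left out 12 genes alone, with 0.727 just outside and 0.751 just inside, and the level kept at 6 h left out 6, with 0.719 and 0.761.

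The course was also described in libraries that the rule had not used. When the rule was applied to 2 replicate numbers, it chose 47, 45 and 47 genes without replicate 1, 2 and 3. In the 4 left-out libraries, 42, 40 and 45 of these had the direction of the rule in each of its 4 differences, and 28, 26 and 25 met every threshold. No share of all tested genes is given for these counts, which are a description only. The median rise at 2 h was 2.66, 2.46 and 2.62 in the left-out libraries, and the median difference between 4 and 2 h was -1.41, -1.27 and -1.32. The median differences from 0 h were 1.11, 1.21 and 1.28 at 4 h and 1.40, 1.48 and 1.45 at 6 h. Between 4 and 6 h the left-out libraries had medians of 0.19, 0.30 and 0.21, with 34, 33 and 32 genes higher at 6 h. With all libraries, 45.6% of all tested genes had a higher mean at 6 h. These splits share no library between choice and measurement, and the replicate numbers serve here only as names.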

How the data were processed

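RNA of leaf pools from 12 libraries, 3 per harvest, was described by 1 deposited table of normalised expression signal, rounded by the authors to 2 decimals. The header names no unit, and the values do not settle one. HISAT2 2.1.0, Salmon and DESeq appear in the submitters' processing notes, with no step assigned to any of them. Build and annotation: not given in the sources used here. Columns were matched to samples by group and replicate number, with 0 columns of other samples. The depth is unknown, and no reads were recovered, so no count test was run. Values were taken as log2(value + 1). A gene entered the test if 3 or more libraries had a value of 1 or more, which kept 25841 genes, all fitted in one limma 3.58.1 model (R 4.3.3, trend and robust) of 12 libraries in 4 groups without a replicate term, with Benjamini-Hochberg adjustment and a threshold of 0.05. The p-values set the difference between 6 and 4 h against the spread between libraries within the 4 groups. Each library is a pool of 3 seedlings, so the spread between single plants is not measured. The procedure was also run on simulated data, in which the changed genes were picked at random. That run does not cover genes chosen by a rule, and nothing is read from it here. The 45 genes were chosen with earlier results of these data known. With no names in the table, lists of named genes were not used, and identifiers were printed for at most 2 members with the largest rise and 2 with the largest fall between 4 and 6 h on the log2(value + 1) scale among those that passed the test; 1 passed as lower. Members described without an identifier were picked after their values were seen.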

Additional observations from a re-analysis of the deposited data

Results flagged for a closer look

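The expression of some of the 45 genes differed between 4 and 6 h, as tested directly: 13 were higher and 1 was lower at 6 h than at 4 h (limma, adjusted p under the threshold of 0.05). Of all tested genes, 4.44% were higher and 5.47% lower. The 1 lower gene is 2.22% of the 45, and nothing is read from so small a count. The rule also takes genes that are low at 4 h relative to 2 h, and drops genes that are low at 6 h. Among the 45 genes, CTI12_AA208120 differed by 1.71 and CTI12_AA503680 by 1.66 on the log2(value + 1) scale, both above their 2 h level at 6 h. CTI12_AA160570 differed by -1.14 and was lower in 3 of 3 libraries at 6 h than in any library at 4 h.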

How the results depend on the processing

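The number of the 45 genes that were higher at 6 h than at 4 h was 10 to 16 under 19 alternatives (no filter, a pseudocount of 0.1 or 5, median-ratio scaling, limma without trend and robust estimation, a model of 4 and 6 h only, a replicate block, and each library left out, which gave 10 to 14), and the number lower was 1 in each. At least 10 of the 13 genes were the same in each. CTI12_AA208120, CTI12_AA503680 and CTI12_AA160570 kept their direction and passed the test in all 19. The replicate block gave 14 higher and 1 lower. Deviations of same-numbered libraries from their harvest means had r across genes of -0.025 to 0.043 in 18 comparisons. The numbers were used as names only. These correlations do not decide whether the numbers mark a pairing or a batch. The median difference of 0.14 was 0.091 with a pseudocount of 5, 0.10 to 0.19 with a library left out, and 0.20 and 0.19 against the left-out 4 h replicates 2 and 3 (an alternative chosen after seeing the data). The rule itself gave 41 genes with a pseudocount of 0.1, of which 30 were among the 45, 22 with one of 5, of which 15 were, 36 with median-ratio scaling, of which 31 were, 20 with thresholds stricter by 0.25 and 93 with looser ones, and 40 to 48 with a library left out. The share of the rise left was 27.3% at 4 h and 31.5% at 6 h without logarithm and 38.6% and 49.9% with median-ratio scaling; with a library left out it was 45.2% to 47.4% and 54.0% to 57.2%. The cause of these changes was not tested. The unknown depth and the small values at 0 h limit the rise of low genes most.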
